A study of Mus musculus with 5 samples.

Results

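The interferon regulatory factor genes Irf1, Irf2, Irf3, Irf4, Irf5, Irf7, Irf8 and Irf9 were followed in 5 RNA-seq libraries of mouse leukaemia stem cells. They were taken by symbol from the normalized count table, in which all 8 were found among 27526 genes, and all 8 also passed the filter on low counts that left 16120 genes for testing. By their labels all were Kit-positive cells of an AML1-ETO9a leukaemia model, in which a shortened form of the RUNX1-RUNX1T1 fusion of human acute myeloid leukaemia drives the disease; the marker genes, given below, do not bear this out for every library. There were 2 libraries labelled Plcg1 +/+ (wild-type 1 and 3) and 3 labelled Plcg1 -/- (deleted 2, 4 and 6), the second group by conditional deletion of Plcg1, which encodes the signalling enzyme phospholipase C-γ1. The labels name no Cre driver, strain, sex or age, and do not say whether each library is a different mouse. P-values here therefore set the difference between labels only against the spread within each label among these 5 samples, and part of that spread may be technical. The series title puts the question as whether self-renewal in this leukaemia needs Plcg1; the comparison here asks how the family's transcripts stand under each labelled genotype.

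Interferon regulatory factors share an N-terminal DNA-binding domain that reads the interferon-stimulated response element, a repeat of GAAA, and differ in the C-terminal part that binds partners. IRF3, IRF5 and IRF7 lie dormant until sensors of nucleic acids or Toll-like receptors lead to their phosphorylation, and then switch on interferon and cytokine genes. IRF9 is the DNA-binding part of the complex ISGF3, which carries the type I interferon signal to the nucleus. IRF1 and IRF2 act on the same sites in opposite ways, IRF1 as an interferon-γ induced activator and IRF2 mostly as its antagonist. IRF4 and IRF8 bind DNA poorly on their own and act with partners such as PU.1; IRF8 directs myeloid progenitors towards monocytes and dendritic cells and away from neutrophils, and IRF4 acts in lymphocytes, dendritic cells and some macrophages.

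Interferon signalling feeds back on this family, so the members' own promoters were searched for the letters these factors read. The stretches shown are those with a match, in Irf1, Irf2 and Irf8. Capitals mark matches to GAAA, any 2 bases and GAAA, the core of the interferon-stimulated response element, or to TTCNNNGAA, the core of a STAT site; each line reads 5′ to 3′ on the plus strand, which is the strand of all 3 genes (RefSeq, GRCm38.p6).
Irf1, chr11:53769904-53769952: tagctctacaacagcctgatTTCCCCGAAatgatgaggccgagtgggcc
Irf2, chr8:46739495-46739549: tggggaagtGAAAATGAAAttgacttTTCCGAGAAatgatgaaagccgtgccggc
Irf8, chr8:120736167-120736233: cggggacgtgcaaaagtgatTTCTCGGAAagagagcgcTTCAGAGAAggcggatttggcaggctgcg

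Both motifs were searched on both strands of windows of 300 bases around each start site in the RefSeq promoter table; the STAT core reads the same on both strands, and the motifs do not overlap in these stretches. The matches in Irf8 begin 171 and 153 bases before the start site, that in Irf1 begins 90 bases before it, and those in Irf2 begin 241 and 224 bases before it. TTCNNNGAA was present in 8.3% of all 32851 promoters of the table (9.55% of its 27025 genes) and the paired GAAA core in 3.44% (3.99% of genes). In the windows of Irf3, Irf4, Irf5, Irf7 and Irf9 these letters were not found, which says nothing on sites elsewhere or of another spelling. A match is a description of letters and not evidence of binding.

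Some facts of the libraries bear on every value below. Gene counts per library ran from 37306507 to 57133771. Plcg1 transcripts did not separate the labels (22.1 and 34.0 CPM for the wild-type pair, 26.9 to 53.0 CPM in deleted, where CPM is a count scaled to the library's TMM-adjusted size), and gene totals cannot check a deletion of part of the gene, so group names refer to the labels. Runx1t1, the mouse gene that corresponds to ETO, had 5 and 13 counts in the libraries labelled wild-type and 598 to 6035 in those labelled deleted, so its counts go against the fusion label for the wild-type pair; whether reads of the fusion are counted there was not tested. Deleted 6 stood apart: it had 5375 counts of Xist against at most 3 elsewhere, 12 counts of the Y-linked Ddx3y against 2811 to 4893, Mpo at 4.21 CPM against 2706 to 5068 CPM, and Kit, the marker named in the cell type label, at 3.08 CPM, which goes against that label. Kit measured 26.8 and 32.1 CPM for the wild-type pair against 672 and 304 CPM for deleted 2 and 4. Values are listed in the order wild-type 1 and 3, then deleted 2, 4 and 6. Tests are given with and without deleted 6.

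With all 5 libraries, edgeR's quasi-likelihood test called 0 of the 8 members, as it called 0% of all genes tested in either direction. Without deleted 6 it called 1 member, Irf8, lower, where 5.07% of all genes tested were called lower and 7.89% higher. At an unadjusted p under 0.05 with all 5 libraries there were 2 members, Irf8 and Irf3, both lower, against 5.42% of all genes lower and 9.44% higher. DESeq2 called 0 members with all 5 libraries (5.75% of all genes higher, 3.05% lower), and limma-voom (weighted by sample quality) called 2, Irf8 and Irf3, both lower (7.63% and 5.87%). The groups did not overlap for 4 members: all deleted values were under both wild-type values for 3, Irf1, Irf3 and Irf8 (23.7% of all genes tested), and over both for 1, Irf4 (22.4%). The same 4 stood apart without deleted 6, when 29.8% and 28.7% of all genes did. Within lane 4, and with no filter on low counts, edgeR called 0 members (1.26% of all genes higher and 0.779% lower, and 0.539% and 0.38%). The members' median log2 fold change was -0.03 with all 5 libraries (0.01 over all genes tested) and -0.25 without deleted 6 (-0.01 over all genes).

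**Figure D1:**
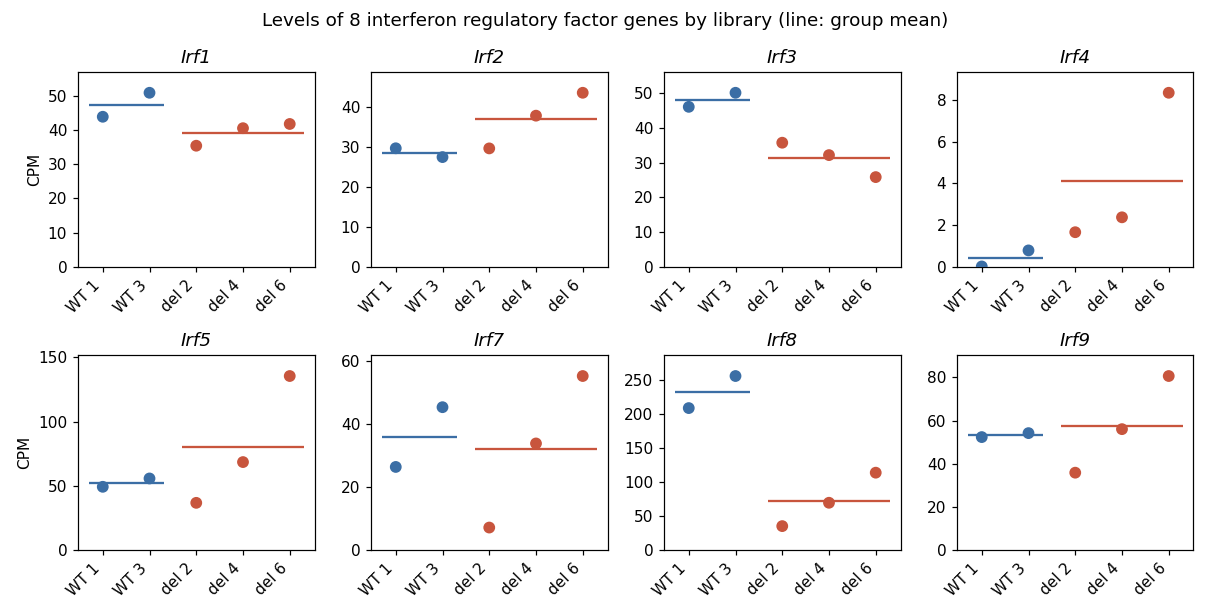
CPM of each of the 8 genes (linear axis from 0, its own scale per panel) in every library; points are libraries, wild-type in blue and deleted in red, and lines are group means. Irf8 is lower in all 3 deleted libraries than in both wild-type libraries, Irf4 is higher, and Irf7 is lowest in deleted 2.

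Irf8 was the family's most abundant transcript under the wild-type label and was lower in every library labelled deleted. The gene (ENSMUSG00000041515.8; plus strand of mm10 chromosome 8, from 120736358 to 120756694) measured 209 and 256 CPM for the wild-type pair against 35.5, 69.9 and 114 CPM in the deleted set. The groups did not overlap, and the highest deleted library was deleted 6, the library that stood apart. Group means came to 233 ± 33.4 CPM (SD, n = 2) for wild-type against 73.2 ± 39.4 CPM (SD, n = 3) for deleted. Deleted minus wild-type, the log2 fold change came to -1.67 ± 0.49 (SE; adjusted p = 0.271 in edgeR across all genes). Without deleted 6, Irf8 fell by 2.13 ± 0.32 on the log2 scale (adjusted p = 0.00871, edgeR). In limma-voom with all 5 libraries the difference was -1.90 ± 0.29 (adjusted p = 0.0149), and in DESeq2 it was -1.67 ± 0.59 (adjusted p = 0.0504). Within lane 4, which alone among the sequencing lanes held both labels, it was -2.27 ± 0.41 (edgeR adjusted p = 0.0821, with the lone wild-type library assumed to vary like the 2 deleted ones). In bulk RNA, fewer cells that express a gene and less of its RNA per cell cannot be told apart.

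Irf4, the closest relative of Irf8 in the family, went the other way and was scarce everywhere. The gene (ENSMUSG00000021356.8) lies on the plus strand of chromosome 13, from 30749226 to 30766976. It had 1 and 44 counts in wild-type 1 and 3, and 95, 126 and 369 counts in deleted 2, 4 and 6. On the CPM scale these were 0.0241, 0.793, 1.66, 2.38 and 8.34. All deleted values were over both wild-type values, but the wild-type values themselves lay far apart. The single count in wild-type 1 has a 95% exact Poisson interval of 0.0253 to 5.57 counts, or 0.00061 to 0.134 CPM (counting error only), and the 44 counts of wild-type 3 one of 0.576 to 1.06 CPM. The log2 fold change was 3.30 ± 1.48 (SE; adjusted p = 0.367 in edgeR) and 2.26 ± 0.99 without deleted 6 (adjusted p = 0.194). The value was 7.28 without wild-type 3, 2.37 without wild-type 1 and 1.36 ± 0.52 within lane 4, which leaves out both wild-type 1 and deleted 6 (adjusted p = 0.253).

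Irf3, which is made constitutively and activated by the kinase TBK1, was lower in all 3 deleted libraries. Irf3 (ENSMUSG00000003184.13; plus strand of chromosome 7, 44997648 to 45002848) stood at 46.0 and 50.1 CPM for the wild-type pair against 35.7, 32.1 and 25.8 CPM in the deleted set. The groups did not overlap, and the lowest value was that of deleted 6. The log2 fold change was -0.62 ± 0.21 (SE; adjusted p = 0.294, edgeR), -0.49 ± 0.14 without deleted 6 (adjusted p = 0.0765) and -0.55 ± 0.17 within lane 4 (adjusted p = 0.192). Limma-voom gave -0.56 ± 0.12, with an adjusted p of 0.0340. Bcl2l12 overlaps exons of Irf3 on the opposite strand, and the kit did not mark strand.

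Irf5 and Irf7, the other members that wait for Toll-like receptor signals, did not separate the labels. Irf5 (ENSMUSG00000029771.11; plus strand of chromosome 6, 29526625 to 29541871), an activator of inflammatory cytokine genes in macrophages, measured 49.3 and 55.8 CPM for the wild-type pair against 36.8, 68.6 and 135 CPM in the deleted set. Its deleted libraries thus lay on both sides of the wild-type pair, with deleted 6 far above the rest. The log2 fold change of Irf5 was 0.61 ± 0.56 (adjusted p = 0.594, edgeR), 0.02 ± 0.28 without deleted 6 and -0.07 ± 0.40 within lane 4. Irf7 (ENSMUSG00000025498.13; minus strand of chromosome 7, 141262706 to 141266481), the interferon-inducible amplifier of type I interferon, measured 26.4 and 45.3 CPM for the wild-type pair against 7.18, 33.8 and 55.2 CPM in the deleted set. Deleted 2 held both the lowest Irf7 level and the lowest Irf5 level of the 5 libraries, and deleted 6 the highest of each. The log2 fold change of Irf7 was -0.16 ± 0.82 (adjusted p = 0.924, edgeR), turned to 0.31 without deleted 2 and 0.28 without wild-type 3, and was -0.80 without deleted 6 and -1.13 within lane 4. Exons of Irf5 and Irf7 overlap Tnpo3 and Phrf1 on the opposite strand, so part of their reads could have been left out or assigned to the neighbour.

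Irf1 and Irf2 had the narrowest range of the family, with highest over lowest library at 1.44-fold and 1.59-fold, and Irf9 spanned 2.25-fold. Irf1 (ENSMUSG00000018899.15) lies on chromosome 11 from 53770014 to 53778374, Irf2 (ENSMUSG00000031627.7) on chromosome 8 from 46739732 to 46847458 and Irf9 (ENSMUSG00000002325.13) on chromosome 14 from 55603571 to 55610030, all on the plus strand. Irf1, at 43.8 and 50.8 CPM for the wild-type pair against 35.4, 40.5 and 41.7 CPM in the deleted set, had groups that did not overlap but a small difference of -0.27 ± 0.18 on the log2 scale (adjusted p = 0.496, edgeR), and -0.31 ± 0.16 without deleted 6. Irf2, the antagonist of Irf1, measured 29.7 and 27.5 CPM for the wild-type pair against 29.6, 37.8 and 43.6 CPM in the deleted set. Deleted 2 lay within the wild-type range and the other deleted libraries above it, for a difference of 0.37 ± 0.23 (adjusted p = 0.471), and 0.25 ± 0.18 without deleted 6. Irf9, the DNA-binding part of ISGF3, measured 52.4 and 54.2 CPM for the wild-type pair against 35.9, 56.1 and 80.7 CPM in the deleted set. Its difference of 0.11 ± 0.36 (adjusted p = 0.881) had no stable sign: it was -0.20 without deleted 6 and -0.23 within lane 4. Irf9 begins inside the end of Rnf31, on the same strand.

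**Figure D2:**
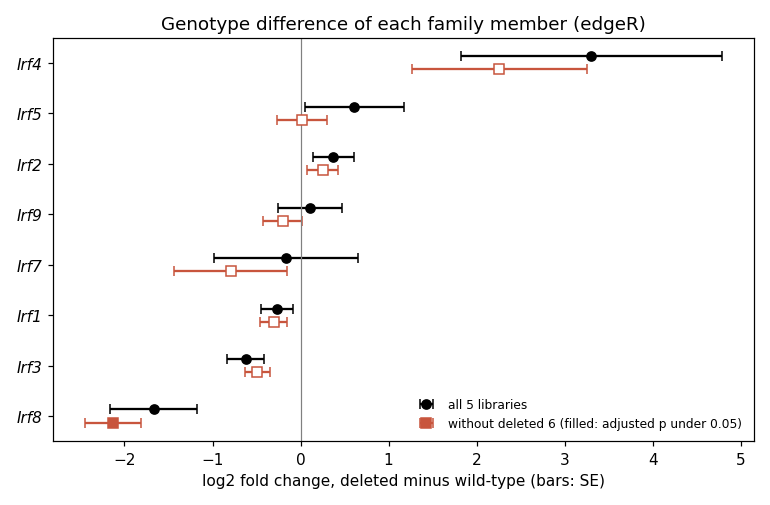
Log2 fold change of each gene, deleted minus wild-type, with its standard error, from edgeR with all 5 libraries (black circles) and without deleted 6 (red squares, filled where the adjusted p is under 0.05). Irf8 alone is filled, at -2.13, and Irf5, Irf7 and Irf9 have bars that cross 0 in at least 1 fit.

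Compared per length, the leading member of the family changed with the label. Levels per length are given as TPM, from counts divided by the length of each gene's merged exons, so a gene whose cells use short forms is understated. Under the wild-type label Irf8 led at 118 ± 18.9 TPM (SD, n = 2), followed by Irf5 at 64.9 ± 6.71, Irf3 at 50.1 ± 3.79, Irf1 at 42.7 ± 5.16, Irf9 at 35.5 ± 1.44, Irf7 at 34.2 ± 13.3, Irf2 at 13.8 ± 0.530 and Irf4 at 0.302 ± 0.402 TPM. Among neighbours in that order, the values of Irf9 and Irf7 overlapped between libraries, and the other pairs did not. Under the deleted label Irf5 led, at 78.5 ± 33.0 TPM (SD, n = 3), and its lowest library, at 46.1 TPM, lay above the highest of the next gene, Irf9, at 36.0 TPM. Irf9, Irf1, Irf8, Irf3, Irf7 and Irf2 followed with means from 31.4 down to 15.1 TPM, each overlapping with the next, and Irf4 was last at 2.30 ± 1.56 TPM. In deleted 2 and 4 alone Irf5 also led, at 46.1 and 77.2 TPM, against at most 37.7 TPM for any other member.

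Irf8 made up 32.3% and 33.4% of the family's summed level per length in wild-type 1 and 3, and 10.1%, 12.7% and 13.7% in deleted 2, 4 and 6. Irf5 made up 18.5% and 17.7% in wild-type and 25.4%, 30.3% and 39.5% in deleted libraries. A share can rise because another member is lower. In deleted 2 Irf5 itself stood at 46.1 TPM, under the 60.2 and 69.7 TPM of wild-type 1 and 3. The summed level itself was 325 and 395 TPM in wild-type and 181, 255 and 284 TPM in deleted 2, 4 and 6. That sum depends on the scale, as TPM were not TMM-adjusted and the TMM factor of deleted 6 was 0.775. In TMM-adjusted CPM, not divided by length, the members summed to 457 and 541 in wild-type and 218, 341 and 505 in deleted 2, 4 and 6. On that scale deleted 6 lay between the wild-type libraries. Irf8 was above 95.9% and 96.7% of the 46091 genes with a length in wild-type, and above 84.7%, 89.3% and 92.8% in deleted libraries. Only 21496 to 23809 of the 46603 counted genes had any count in a library, so these percentages would be lower among detected genes. These shares were set after earlier results were known and carry no test.

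**Figure D3:**
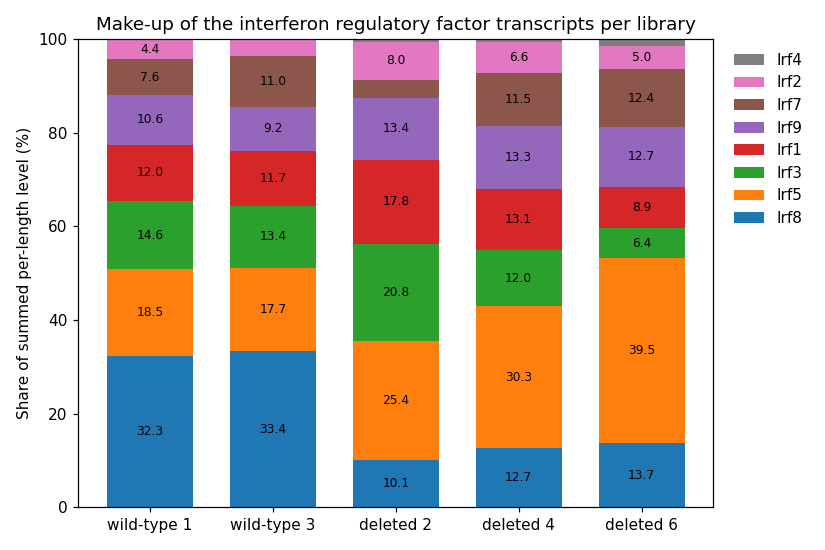
Share of each of the 8 genes in the family's summed level per length (%, stacked to 100) in every library. The Irf8 share is 32.3% and 33.4% in wild-type and 10.1% to 13.7% in deleted libraries, and Irf5 is the largest share in each deleted library.

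The main partner of IRF8 and IRF4 did not pass the test. A few other genes on a list of their partners and related factors passed it in edgeR without deleted 6. Spi1, which encodes PU.1, measured 361 and 339 CPM for the wild-type pair against 279, 319 and 339 CPM in the deleted set (log2 fold change -0.16 ± 0.19, adjusted p = 0.674, edgeR). Of the 19 genes of this list tested, edgeR called 0 with all 5 libraries, and 2 higher and 3 lower without deleted 6 (7.89% and 5.07% of all genes). Their median log2 fold change was 0.20, against 0.01 over all genes tested, and -0.09 without deleted 6. Tcf4, an E protein needed by plasmacytoid dendritic cells, measured 93.0 and 100.2 CPM for the wild-type pair against 37.8, 40.1 and 54.5 CPM in the deleted set. It fell by 1.30 ± 0.13 without deleted 6 (adjusted p = 0.00251), and differed by -1.13 ± 0.22 with it (adjusted p = 0.168). Id2, an inhibitor of E proteins, rose by 1.66 ± 0.18 without deleted 6 (adjusted p = 0.00286), from 74.1 and 54.6 CPM to 199.7 and 204 CPM, with 586 CPM in deleted 6. With all 5 libraries it differed by 2.36 ± 0.62 (adjusted p = 0.232). The others called without deleted 6 were Jun, which rose by 1.25 ± 0.21 (adjusted p = 0.0129), and the transcription factor genes Ets1 and Gfi1, which fell by 1.32 ± 0.16 and 0.84 ± 0.21 (adjusted p = 0.00437 and 0.0458). Their adjusted p-values with all 5 libraries were 0.247, 0.440 and 0.661.

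Among 17 tested genes known to depend on IRF8 in myeloid cells, edgeR called 0 with all 5 libraries, and 4 higher and 2 lower without deleted 6, where 7.89% and 5.07% of all genes were called. Their median log2 fold change was 1.05, and 0.17 without deleted 6. The 2 called lower in that fit were Pml, which forms nuclear bodies, and Ly86, a partner of the Toll-like receptor relative RP105. Ly86 measured 77.9 and 72.2 CPM for the wild-type pair, 2.30 and 5.79 CPM for deleted 2 and 4, and 39.3 CPM for deleted 6. It fell by 4.20 ± 0.42 without deleted 6 (adjusted p = 0.00228, edgeR), and Pml by 1.16 ± 0.21 (adjusted p = 0.0170). Their adjusted p-values were 0.410 and 0.165 with all 5 libraries. Those called higher were Id2, Blnk and the class II antigen presentation genes Cd74 and H2-Aa. Cd74, the invariant chain, measured 92.6 and 107 CPM for the wild-type pair, 527 and 712 CPM for deleted 2 and 4, and 2921 CPM for deleted 6. It rose by 2.65 ± 0.20 without deleted 6 (adjusted p = 0.00112), and its adjusted p with all 5 libraries was 0.224.

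Irf4 had the same order of libraries as these class II genes. From lowest to highest it ran wild-type 1, wild-type 3, deleted 2, deleted 4, deleted 6, an order held by 6.05% of the 16120 genes tested. Ciita, the master regulator of class II transcription, had the same order at 0.121, 1.33, 3.03, 3.36 and 12.6 CPM. By root mean square difference of centred log2 CPM over the 5 libraries, searched among 9074 genes, the genes nearest to Irf4 were Gas6, a ligand of TAM receptors (0.89), Trim47 (0.91) and the class II chain H2-Eb1 (0.92). H2-Eb1 stood at 4.75 and 9.17 CPM for the wild-type pair against 47.9, 51.8 and 341 CPM in the deleted set. Irf8 had nearer neighbours: Amotl1 (0.23), Aldh3b1 (0.24) and Gbp3 (0.34). With 5 libraries such likeness is a description only.

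Markers of other cell types differed between libraries beside Irf8 and Irf4. Of 6 conventional dendritic cell markers tested without deleted 6, 4 were called higher, against 7.89% of all genes, and of 7 tested with all 5 libraries, 0 were called. The summed level of the 8 markers was 41.2 and 46.4 CPM for the wild-type pair against 219 to 1430.0 CPM for deleted libraries. Itgax and H2-Ab1 carried that sum, while Cd209a had at most 2 counts and Xcr1 at most 30. Xcr1 went the other way. Its log2 CPM minus its own mean was 0.85 and 0.55 for the wild-type pair against 0.04, -0.58 and -0.85 in the deleted set. Flt3 was highest in wild-type 3 (2.42 on that scale) and lowest in deleted 6 (-1.41). The 12 monocyte and macrophage markers summed to 3141 and 3920 CPM for the wild-type pair against 2050 to 5837 CPM for deleted libraries. Without deleted 6, 1 was called higher (7.89% of all genes) and 3 lower (5.07%), and with all 5 libraries 0 were called. Ccr2, the chemokine receptor of inflammatory monocytes, measured 295 and 307 CPM for the wild-type pair against 47.7, 121 and 37.7 CPM in the deleted set. Adgre1, the gene called higher, went the other way, at 195 and 244 CPM against 362, 628 and 731 CPM. It rose by 1.19 ± 0.27 without deleted 6 (edgeR adjusted p = 0.0368, and 0.245 with all 5). The 13 mast cell and basophil markers were all called higher without deleted 6 (7.89% of all genes), and 0 were called with all 5 libraries. They summed to 126 and 202 CPM for the wild-type pair, 12104 and 5529 CPM for deleted 2 and 4, and 40.7 CPM for deleted 6. Of the B cell markers, Pax5 had at most 2 counts in any library. Cd79b had 647 and 1159 counts for the wild-type pair against 223, 339 and 0 in the deleted set. It fell by 1.81 ± 0.30 without deleted 6 (edgeR adjusted p = 0.0133, and 0.501 with all 5). Of 6 B and plasma cell markers tested without deleted 6, 1, Cd79b, was called lower (5.07% of all genes) and 0 higher (7.89%). Cd22 went the other way and was not called. Its log2 CPM minus its own mean was -0.90 and -0.73 for the wild-type pair against -0.46, 0.16 and 1.92 in the deleted set. Of the plasmacytoid markers, Siglech had at most 25 counts and Klk1 0 in all 5. Of 6 plasmacytoid markers tested, 2, Tcf4 and Runx2, were called lower without deleted 6 (5.07% of all genes). With all 5 libraries 0 were called. Runx2 had a log2 fold change of -1.02 ± 0.15 without deleted 6 (edgeR adjusted p = 0.00841, and 0.229 with all 5). None was called higher, but Bst2 and Ccr9 were highest in deleted 6. Bst2 measured 83.5 and 79.0 CPM for the wild-type pair against 74.4, 121 and 150 CPM in the deleted set. Neutrophil markers summed to 15148 to 20801 CPM in 4 libraries and 1394 CPM in deleted 6. Of these 12 markers, 4 were called lower (5.07% of all genes) and 0 higher (7.89%) without deleted 6, and 0 were called with all 5 libraries. Those called lower were Elane (log2 fold change -2.54), Camp (-2.39), Ngp (-1.43) and Prtn3 (-1.13). T and NK cell markers summed to 78.7 and 109 CPM for the wild-type pair against 36.6, 30.2 and 4.03 CPM in the deleted set. Of 3 tested, 1 was called lower without deleted 6 (5.07% of all genes), and 0 were called with all 5 libraries. Of 9 erythroid and megakaryocyte markers tested, 5 were called higher (7.89% of all genes) and 0 lower (5.07%) without deleted 6. With all 5 libraries 0 were called. The 12 genes of this list summed to 64.8 to 77.5 CPM under the wild-type label and 268 to 396 CPM under the deleted label. The sum hides a split among the deleted libraries. Mean log2 CPM of the 9 tested was 0.30 and 0.62 for the wild-type pair against 2.57, 2.33 and -0.26 in the deleted set. Deleted 6 was the lowest library for 6 of these 9, where it was the lowest for 37.9% of all genes tested. The part of dendritic, monocyte, neutrophil, B and mast cell content in the Irf8 and Irf4 differences was not tested.

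**Figure D4:**
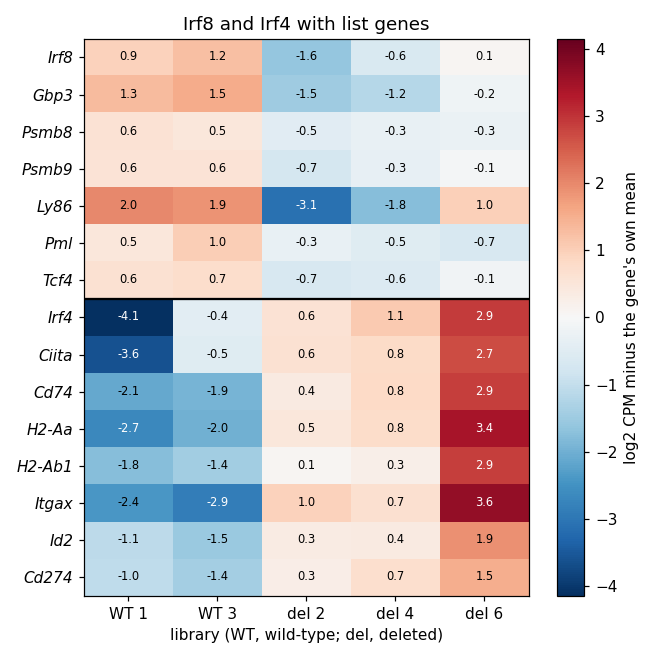
Log2 CPM minus each gene's own mean over the 5 libraries, for Irf8 with list genes that were lower in deleted 2 and 4 (above the line) and Irf4 with list genes that were higher (below it). The genes beside Irf8 and Irf4 were chosen after their values were seen. Irf8 is above its mean in both wild-type libraries, and Irf4 runs from its lowest value in wild-type 1 to its highest in deleted 6.

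Among 21 tested genes known to depend on IRF1 under interferon-γ, edgeR called 0 with all 5 libraries, and 1 higher and 4 lower without deleted 6 (7.89% and 5.07% of all genes). The median log2 fold change was 0.31, and -0.35 without deleted 6. Gbp3, a guanylate-binding protein, measured 65.6 and 76.9 CPM for the wild-type pair against 9.58, 11.9 and 23.4 CPM in the deleted set. It fell by 2.72 ± 0.18 without deleted 6 (adjusted p = 0.000923, edgeR), and its adjusted p with all 5 libraries was 0.163. The immunoproteasome subunit genes Psmb8 and Psmb9 fell by 0.91 ± 0.14 and 1.07 ± 0.17 without deleted 6 (adjusted p = 0.00920 and 0.0103), and Gbp5 was the remaining gene called lower. Psmb8 and Psmb9 differed by -0.88 ± 0.17 and -0.93 ± 0.23 with all 5 libraries (adjusted p = 0.164 and 0.220). Cd274, which encodes the checkpoint ligand PD-L1, rose by 1.71 ± 0.20 without deleted 6 (adjusted p = 0.00400), from 83.6 and 65.2 CPM to 207 and 277 CPM, and measured 491 CPM in deleted 6 (2.13 ± 0.45 with all 5 libraries, adjusted p = 0.184). Gbp genes form a family of similar copies, so their counts are less certain.

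Irf7 and the ISGF3 targets, genes that type I interferon switches on through IRF9, were lowest in deleted 2 for most genes, and their groups overlapped for most. All deleted values were over both wild-type values for 3 of the 25 targets (22.4% of all genes tested) and under both for 2 (23.7%). In 19 of the 25 targets tested (76.0%) deleted 2 was the lowest library, where it was the lowest for 14.4% of all genes tested. In 16 of the 25 (64.0%) deleted 6 was the highest, where it was the highest for 36.2% of all genes. Of the family itself, 5 of 8 members were lowest in deleted 2. EdgeR called 0 of the 25 targets with all 5 libraries, and 0 without deleted 6 (7.89% of all genes higher, 5.07% lower). At an unadjusted p under 0.05 with all 5, 1 was higher (9.44% of all genes) and 0 were lower (5.42%). The higher target was Oasl1, an antiviral protein that limits Irf7 translation, at 3.45 and 6.59 CPM for the wild-type pair against 8.50, 15.7 and 21.0 CPM in the deleted set. Rsad2, the antiviral viperin, measured 9.55 and 11.7 CPM for the wild-type pair against 12.6, 28.3 and 65.4 CPM in the deleted set.

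Other targets showed the low value of deleted 2 more plainly. Ifit3 measured 1.74 and 3.64 CPM for the wild-type pair against 0.175, 2.66 and 5.25 CPM in the deleted set, and Oas2 measured 16.9 and 26.6 CPM for the wild-type pair against 3.91, 29.5 and 27.0 CPM in the deleted set. The genes nearest to Irf7 in pattern were the phagocytic receptor Mertk (0.22), the nucleic acid sensor Zbp1 (0.24), itself an ISGF3 target, and Arsg (0.27). Zbp1 measured 15.4 and 17.0 CPM for the wild-type pair against 3.84, 13.9 and 28.4 CPM in the deleted set. Ifit3 and Oas2 were picked after their values were seen. Summed over the 25 targets, the level was 654 and 821 CPM for wild-type 1 and 3, and 519.6, 1066 and 1605 CPM for deleted 2, 4 and 6, so the deleted libraries lay on both sides of the wild-type ones.

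**Figure D5:**
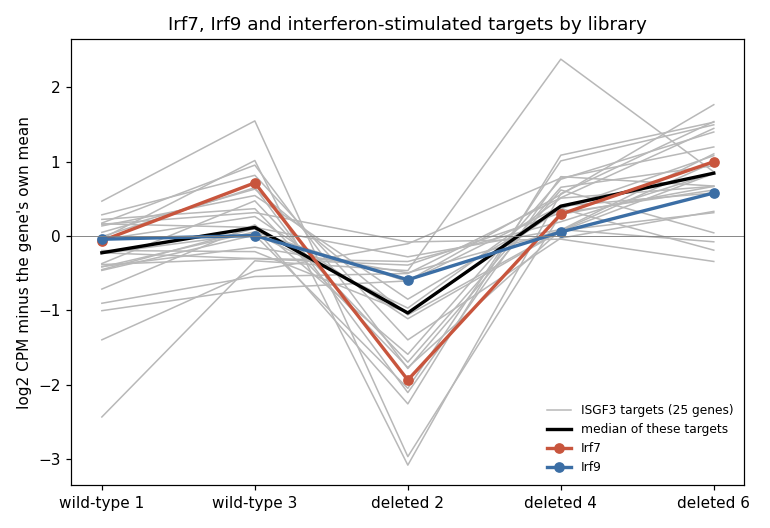
Log2 CPM minus each gene's own mean over the 5 libraries for the 25 ISGF3 targets (grey, with their median in black), Irf7 (red) and Irf9 (blue). The lines join libraries of no natural order to let a gene be followed; most grey lines and Irf7 dip in deleted 2, and most are highest in deleted 6.

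The interferon pathway above the family was present except for the ligands. None of 14 interferon genes passed the filter, 10 had 0 counts in all 5 libraries, and the highest count of any was 4, of Ifna13. A count of 0 allows up to 3 counts, or 0.0526 to 0.0723 CPM depending on the library, and covers counting error only. Of 11 receptor, kinase and STAT genes, edgeR called 0 with all 5 libraries, and 1 higher and 2 lower without deleted 6 (7.89% and 5.07% of all genes). Ifngr1, the ligand-binding chain of the interferon-γ receptor, measured 475 and 473 CPM for the wild-type pair against 173, 214 and 149 CPM in the deleted set. It fell by 1.28 ± 0.16 without deleted 6 (adjusted p = 0.00450), and differed by -1.41 ± 0.22 with it (adjusted p = 0.133). Ifnlr1, the receptor chain for interferon-λ, fell by 2.54 ± 0.58 (adjusted p = 0.0358) and Jak2 rose by 0.93 ± 0.16 (adjusted p = 0.0141) without deleted 6. With all 5 libraries they differed by -2.76 ± 0.64 and 0.75 ± 0.27 (adjusted p = 0.203 and 0.311). Stat2, which joins IRF9 in ISGF3, measured 109 and 149 CPM for the wild-type pair against 93.3, 127 and 159 CPM in the deleted set, lowest in deleted 2 and highest in deleted 6.

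Sensors and kinases that act on IRF3, IRF5 and IRF7 lay in both directions. Of 27 tested, the deleted values were all over the wild-type values for 10 (22.4% of all genes) and all under them for 6 (23.7%). EdgeR called 0 with all 5 libraries and 2 without deleted 6, both lower, where 5.07% of all genes were, so the list's share is close to that of all genes. These were Mb21d1, the DNA sensor cGAS, which fell by 0.97 ± 0.17 (adjusted p = 0.0152), and Tbkbp1, an adaptor of TBK1, which fell by 1.35 ± 0.20 (adjusted p = 0.00939). With all 5 libraries they differed by -1.22 ± 0.33 and -1.66 ± 0.43 (adjusted p = 0.245 and 0.230). Mb21d1 stood at 35.5 and 43.5 CPM for the wild-type pair against 19.6, 20.5 and 10.9 CPM in the deleted set. Tlr7, the receptor of single-stranded RNA upstream of IRF5 and IRF7, measured 25.05 and 32.2 CPM for the wild-type pair against 39.5, 71.7 and 210 CPM in the deleted set (log2 fold change 1.90 ± 0.77, adjusted p = 0.342, edgeR, and 0.97 ± 0.29, adjusted p = 0.0802, without deleted 6).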

How the data were processed

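Libraries were made from total RNA with the SMART-Seq v4 and Nextera XT kits, per the labels' protocols; these do not mark strand. The submitters' processing notes name bcl2fastq 1.8.4, STAR, DESeq2 1.12.4 and mm10; the sources used here do not say how reads were assigned to genes. The authors deposited whole-number counts for 46603 genes per library and a normalized signal, which is the count over a size factor that is constant within a library; the counts were used for every value. Rows that name no gene were left out: multiply aligned reads (13.0% to 15.1% of all reads), reads without a feature (5.89% to 8.09%), unaligned (2.48% to 4.13%) and ambiguous reads (2.36% to 2.78%).

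Groups came from the titles. Genes were kept with filterByExpr, scaled with TMM and compared by the quasi-likelihood F test of edgeR (edgeR 4.0.16, limma 3.58.1, DESeq2 1.42.0, R 4.3.3) on genotype, which leaves 3 residual degrees of freedom. Benjamini-Hochberg adjustment ran over all genes tested, and a call means an adjusted p under 0.05. SE is the log2 fold change over the square root of F. Per-length levels and coordinates use GENCODE M21 on GRCm38, the build of mm10; promoters are RefSeq's. Libraries of a group differed beyond counting noise (lowest chi-square 50.2 per gene). The members and gene lists were chosen with earlier results of these data known. From each list the 2 genes with the smallest p were named, with textbook partners, except where not reported here; other list genes were picked after their values were seen. Some genes stand on more than 1 list. Protein sequences were not analysed here.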

Additional observations from a re-analysis of the deposited data

How the results depend on the processing

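The log2 fold changes of the 8 members were recomputed under up to 12 alternatives each, 95 values in all: 85 kept direction and side of the threshold, 3 kept direction and passed it, and 7 turned. Those that passed were Irf8 and Irf3 with limma-voom and Irf8 without deleted 6, given in the report. Those that turned, none of them past the threshold, were Irf9 with library size alone (-0.15), limma-voom (-0.040), lane 4 only (-0.23) and without deleted 6 (-0.20), Irf7 without wild-type 3 (0.28) and without deleted 2 (0.31), and Irf5 in lane 4 (-0.072); the cause was not tested. With single libraries left out, Irf7 ran from -0.80 to 0.31 and Irf9 from -0.20 to 0.36. The number of members called was 2 with limma-voom, and 0 to 1 with single libraries left out. The number of all genes called, 0 in the main fit, was 1419 with DESeq2, 2177 with limma-voom, 278 with no filter on low counts and 342 in lane 4, and 0 to 2045 with single libraries left out, the 2045 being without deleted 6. Library size alone in place of TMM moved the median log2 fold change of all genes by -0.20. Irf4 was not among the genes left by the stricter filter (mean CPM of at least 5). No paired analysis was possible because the groups share no replicate number. Depth limits Irf4 in wild-type 1 and the interferon ligands; the other members had at least 410 counts in every library.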

Other observations

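Irf2bpl, Irf2bp2 and Irf2bp1 encode corepressors that bind IRF2, and edgeR called none of the 3 with all 5 libraries or without deleted 6. Irf2bpl alone was at an unadjusted p under 0.05 with all 5, higher, as were 9.44% of all genes. Irf2bp2 measured 306 and 347 CPM for the wild-type pair against 243, 239 and 156 CPM in the deleted set, and Irf2bpl measured 34.0 and 32.6 CPM for the wild-type pair against 44.1, 43.6 and 56.0 CPM in the deleted set. Of 12 negative regulators of interferon signalling edgeR called 0 with all 5 libraries, and 1 higher and 1 lower without deleted 6 (7.89% and 5.07% of all genes). Tnfaip3, the ubiquitin editor A20, rose by 1.25 ± 0.20 on the log2 scale in that fit (adjusted p = 0.0106), from 19.0 and 26.2 CPM to 50.1 and 56.6 CPM, and measured 43.8 CPM in deleted 6. Nlrx1, a mitochondrial brake on antiviral signalling, fell by 0.83 ± 0.20 (adjusted p = 0.0450). With all 5 libraries Tnfaip3 and Nlrx1 differed by 1.15 ± 0.24 and -0.98 ± 0.26 (adjusted p = 0.182 and 0.241). Usp18, which removes ISG15 and blocks the interferon receptor, measured 14.8 and 21.9 CPM for the wild-type pair against 15.6, 47.5 and 94.7 CPM in the deleted set.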
